A study of Panax japonicus with 5 samples.

Results

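The oleanane branch of triterpene saponin biosynthesis was followed here through 3 unigenes of Panax japonicus out of 135235 in the assembly. They were taken by name: TR8430|c0_g1 and TR76208|c0_g1, which carry the label beta-amyrin synthase in the pathway heat map of the study, and TR45427|c0_g1, which carries the label CYP716A52v2. RNA of rhizome_O, rhizome_Y, secRoot, flower and leaf was sequenced as 1 library per tissue, all from 1 untreated plant aged 7 years that grew outdoors. Rhizome_Y is the rhizome at the bud scar nearest to the stem, rhizome_O is an older stretch further from the stem (given as the sixth scar, and also as the sixth and the seventh), and secRoot is the secondary root. With 1 library and 1 plant, differences between tissues could not be checked against replicates, and p-values are not reported.

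Triterpene saponins of Panax start from 2,3-oxidosqualene, which squalene epoxidase makes and which different cyclases fold into different skeletons. Beta-amyrin synthase closes it to beta-amyrin, the oleanane skeleton, and CYP716A52v2, a cytochrome P450 characterized in Panax ginseng, oxidizes beta-amyrin to oleanolic acid. Oleanolic acid is the aglycone of ginsenoside Ro and of the oleanane-type saponins for which the rhizome of Panax japonicus is known. Dammarendiol synthase takes the same substrate into the dammarane branch, where CYP716A53v2, also known from Panax ginseng, acts later as a protopanaxadiol hydroxylase.

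The expected counts of the libraries, which are read pairs assigned to contigs, added up to between 2403221 in flower and 4920387 in secRoot. The leaf library stood apart from the others. Of the unigenes with a count in leaf, 16.8% to 25.0% also had a count in any given other library, whereas any pair among the other 4 libraries shared 71.2% to 86.3% of the unigenes of either. The leaf library held RNA of photosynthetic tissue. The 9 contigs listed under ribulose bisphosphate carboxylase, the carbon-fixing enzyme of photosynthesis, summed to 6026 FPKM in leaf. They summed to 967 FPKM in flower and to 11.6 to 42.7 FPKM in the underground tissues. This enzyme is not particular to leaf, so these values do not settle the identity of the library. Why the library stood apart was not tested. All values of the oleanane unigenes in leaf rest on 4 counts or fewer, so leaf is given separately throughout. The part of this library difference in the leaf values below was not tested.

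The 3 unigenes differed strongly in length and depth. Each is a single contig, so no level of these 3 unigenes is a sum over their contigs. Levels of some comparison unigenes below are such sums, as for TR67053|c1_g2 with 3 contigs and TR56921|c0_g1 with 8. TR8430|c0_g1 measured 2732 bp, and 1.003% of all unigenes were longer. TR45427|c0_g1 measured 1765 bp, and 4.59% of all unigenes were longer. TR76208|c0_g1 measured only 533 bp. Over the 5 libraries TR8430|c0_g1 had 6951 counts, TR45427|c0_g1 had 2380 and TR76208|c0_g1 had 21, so that the first 2 carry nearly all of what can be measured. Reads from near-identical copies can be split between contigs by the counting. All counts were whole, so no divided reads are visible here. How reads matching several contigs were placed, and their share, was not known for any of the 3.

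TR8430|c0_g1, the main beta-amyrin synthase unigene, was most abundant in the rhizomes. Its level, in FPKM (fragments scaled to contig length and library depth), was 287 in rhizome_O, 404 in rhizome_Y, 94.5 in secRoot, 44.3 in flower and 0.25 in leaf. These levels come from 2512, 2960, 1201, 275 and 3 counts in the same order of tissues. The exact 95% Poisson intervals, which cover counting error only, were 276 to 299 FPKM in rhizome_O, 389 to 419 in rhizome_Y, 89.2 to 99.99 in secRoot, 39.2 to 49.8 in flower and 0.052 to 0.73 in leaf. No 2 of these intervals overlapped, so the order rhizome_Y, rhizome_O, secRoot, flower and leaf was set apart by more than counting error at each step, although TMM scaling of the 5 libraries, described below, put rhizome_O before rhizome_Y. In bulk tissue, fewer cells of a type and less RNA per cell cannot be told apart.

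TR45427|c0_g1, the CYP716A52v2 unigene that acts on the product of the cyclase, had the same order of tissues, also with the rhizomes exchanged under that scaling. It had a smaller span over the 4 tissues other than leaf. Its level was 129.7 FPKM in rhizome_O, 242 in rhizome_Y, 48.8 in secRoot, 43.2 in flower and 0.54 in leaf, from 709, 1111, 388, 168 and 4 counts. The intervals were 120.3 to 139.6 FPKM in rhizome_O, 228 to 257 in rhizome_Y, 44.1 to 53.9 in secRoot, 36.9 to 50.3 in flower and 0.15 to 1.38 in leaf. Here secRoot and flower overlapped, and their order is not set apart by these counts on the FPKM scale. From the lowest to the highest of the 4 tissues other than leaf, CYP716A52v2 spanned 5.61-fold and TR8430|c0_g1 spanned 9.12-fold, both between flower and rhizome_Y.

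TR76208|c0_g1, the short unigene with the same cyclase label, was close to the limit of detection. It had 2 counts in rhizome_O, 11 in rhizome_Y, 3 in secRoot, 5 in flower and 0 in leaf, which correspond to 1.54, 10.1, 1.59, 5.39 and 0 FPKM. In this short contig 3 counts equal 1.59 to 3.24 FPKM, and the 0 counts in leaf allow a level of up to 1.69 FPKM (3 counts). Rhizome_Y had the highest level (with rhizome_O at 1.01 times it under TMM of 5 libraries), but its interval of 5.04 to 18.1 FPKM overlapped that of flower, 1.75 to 12.6 FPKM.

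**Figure D1:**
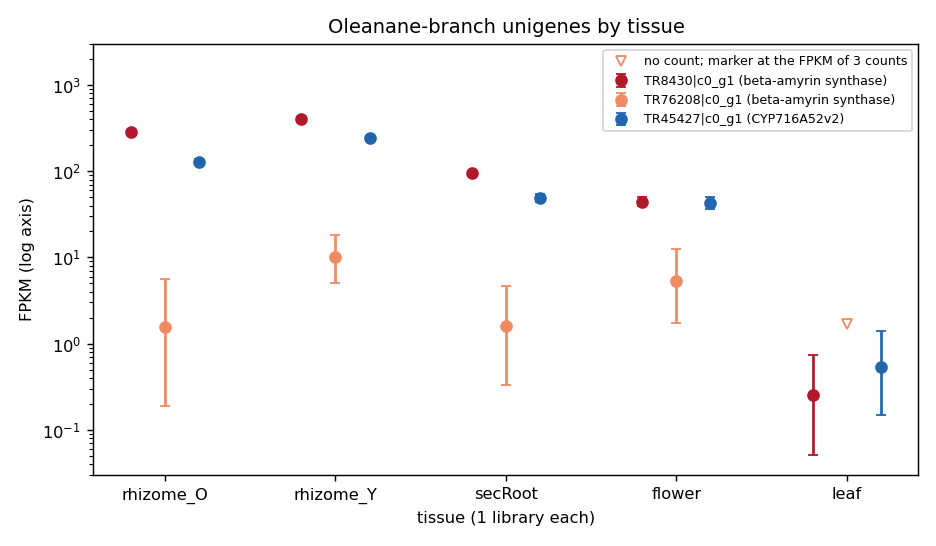
Level in FPKM, on a log axis, of TR8430|c0_g1 and TR76208|c0_g1 (beta-amyrin synthase) and TR45427|c0_g1 (CYP716A52v2) in each tissue. Points are the values of the 1 library per tissue, bars are exact 95% Poisson intervals, and the open triangle marks the level of 3 counts where TR76208|c0_g1 had none; TR8430|c0_g1 and TR45427|c0_g1 lie at 43.2 FPKM or more in every tissue except leaf, where both are below 1 FPKM.

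The level of the oxidase relative to the cyclase differed between tissues and was highest in flower among the 4 tissues other than leaf. This ratio divides the FPKM of CYP716A52v2 by the summed FPKM of TR8430|c0_g1 and TR76208|c0_g1 in the same library, so that it does not depend on how libraries are scaled against each other. It was 0.449 in rhizome_O (95% interval of the pooled counts 0.412 to 0.488), 0.585 in rhizome_Y (0.546 to 0.627), 0.508 in secRoot (0.452 to 0.570) and 0.870 in flower (0.714 to 1.06). In both rhizomes and in secRoot the oxidase was thus below the cyclase by more than counting error, whereas in flower the interval included 1. When TR67053|c1_g2, described below, was counted as cyclase too, the flower ratio was 0.601 (0.497 to 0.725), also below 1. In leaf the ratio was 2.16, but from 4 over 3 counts, with an interval of 0.365 to 14.7.

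The ratio was compared between all 10 pairs of tissues, with conditional intervals of the pooled counts. The ratio of rhizome_O was 0.516 times that of flower (0.417 to 0.640), that of rhizome_Y was 0.673 times that of flower (0.547 to 0.830) and that of secRoot was 0.584 times that of flower (0.465 to 0.735). All 3 intervals lay below 1, so relative to flower each underground tissue had less oxidase per cyclase. The ratio of rhizome_O was also lower than that of rhizome_Y, at 0.767 times (0.687 to 0.855). Rhizome_Y over secRoot gave 1.15 times (1.01 to 1.32), barely above 1. Rhizome_O over secRoot gave 0.884 times (0.765 to 1.02), and the 4 pairs with leaf gave 0.208 to 0.403 times; the intervals of these 5 pairs included 1. The intervals are not adjusted for the number of pairs. With TR67053|c1_g2 added to the cyclase, rhizome_Y over flower came to 0.909 times with an interval that included 1 (0.744 to 1.11), while rhizome_O over flower was 0.717 times (0.583 to 0.883) and secRoot over flower 0.738 times (0.591 to 0.924).

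**Figure D2:**
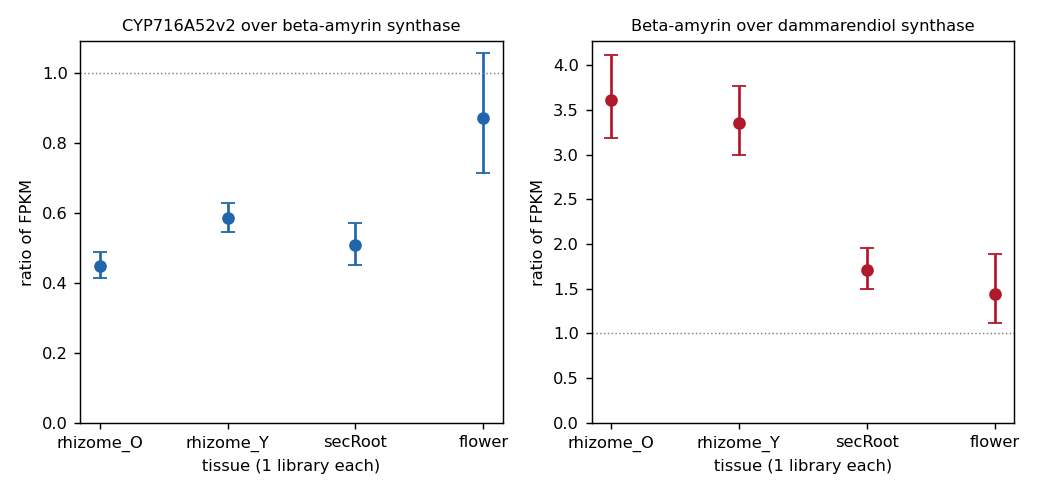
Ratio of FPKM within each library for the 4 tissues other than leaf: CYP716A52v2 over the summed beta-amyrin synthases TR8430|c0_g1 and TR76208|c0_g1 (left), and the same synthases over the summed dammarendiol synthases TR71337|c0_g1 and TR39742|c0_g1 (right). Bars are 95% intervals of counting error from the pooled counts and the dotted line is a ratio of 1. Flower has the highest oxidase to cyclase ratio, 0.870. It has the lowest ratio of beta-amyrin to dammarendiol synthase, 1.44, which changes to 2.09 with TR67053|c1_g2 added.

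Within the rhizome libraries the cyclase and the oxidase were among the more abundant unigenes. Counting from the highest FPKM down, TR8430|c0_g1 ranked 740 of 69222 unigenes above 0 in rhizome_O, 499 of 60819 in rhizome_Y, 2693 of 69969 in secRoot, 5924 of 59228 in flower and 60864 of 63757 in leaf. It therefore stood within the top 1.07% in rhizome_O, 0.820% in rhizome_Y, 3.85% in secRoot, with 10.002% in flower. Placing its level at either end of the counting interval moved the rank between 702 and 784 in rhizome_O and between 475 and 536 in rhizome_Y.

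CYP716A52v2 ranked below the cyclase in each of these 4 libraries, but by less in flower. Its ranks were 1820 in rhizome_O, 987 in rhizome_Y, 5273 in secRoot, with 6119 in flower, which is the top 2.63%, 1.62%, 7.54% and 10.3% in that order. In flower the rank range of the oxidase under counting error, 5179 to 7275, overlapped that of the cyclase, 5234 to 6835. In leaf CYP716A52v2 ranked 58081 and TR8430|c0_g1 60864, both beyond 90% of the unigenes above 0, where ranks are decided by single counts (91.1% and 95.5%).

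A rank by FPKM gives short contigs with few counts a high place, so ranks by expected count were set beside it. By counts, TR8430|c0_g1 ranked 98 in rhizome_O, 61 in rhizome_Y, 649 in secRoot, with 1526 in flower. CYP716A52v2 ranked 747, 342, 2521 and 2758 in the same tissues. The order of tissues by rank was the same as on the FPKM scale for both unigenes. TR76208|c0_g1 had an FPKM rank of 59428 in rhizome_O, 20403 in rhizome_Y, 58096 in secRoot, with 35383 in flower, and with 2 to 11 counts these places are loose: the range in rhizome_Y was 13217 to 31837.

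A narrower yardstick was the set of 897 unigenes used for the k-means clustering of the study. Among those above 0, TR8430|c0_g1 ranked 13 of 779 in rhizome_O, 12 of 777 in rhizome_Y, 74 of 775 in secRoot, with 134 of 762 in flower. CYP716A52v2 ranked 47, 31, 133 and 141 in these libraries. The distance between the cyclase and the oxidase in this set was 34 places in rhizome_O, 19 in rhizome_Y, 59 in secRoot, but 7 in flower.

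**Figure D3:**
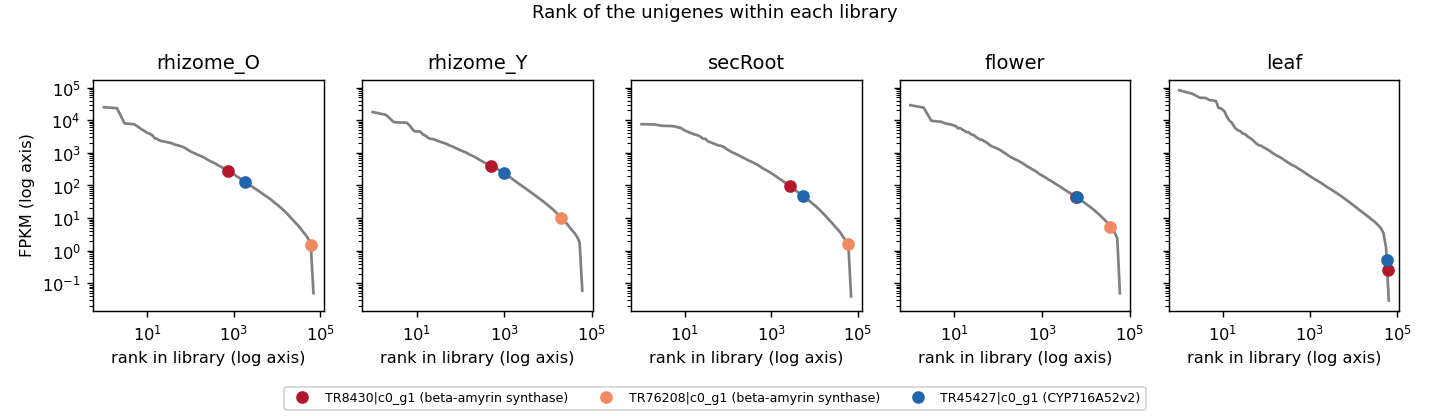
FPKM against rank for all unigenes above 0 in each library, both on log axes (grey line), with the places of TR8430|c0_g1, TR76208|c0_g1 and TR45427|c0_g1. TR8430|c0_g1 ranks 499 in rhizome_Y and 60864 in leaf; in flower the points of TR8430|c0_g1, rank 5924, and TR45427|c0_g1, rank 6119, coincide.

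Between the rhizomes, the older one had the lower levels of both main unigenes on the FPKM scale, a direction that depended on scaling with or without leaf. TR8430|c0_g1 in rhizome_O was 0.712 times its level in rhizome_Y (exact conditional 95% interval 0.675 to 0.751), and scaling the 5 libraries by TMM, edgeR's trimmed mean of M-values, turned this direction round to 4.69. CYP716A52v2 in rhizome_O was 0.535 times its level in rhizome_Y (0.486 to 0.589), and the same scaling turned it round to 3.53. That scaling took leaf as its reference library and raised every log2 ratio of rhizome_O over rhizome_Y by 2.72, while TMM of the 4 libraries without leaf lowered it by 0.13. TR76208|c0_g1 was also lower in rhizome_O, at 0.153 times rhizome_Y, but from 2 against 11 counts (0.0164 to 0.699), and it came to 1.01 under TMM of 5 libraries.

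On the FPKM scale none of the 3 unigenes was both over 2-fold different between the rhizomes and above the minimum of 100 counts in either library. CYP716A52v2 lay at that limit: rhizome_O came to 0.488 times rhizome_Y under TMM without leaf (0.443 to 0.536) and to 0.4997 times under median-of-ratios scaling without leaf (0.454 to 0.550), both just over 2-fold lower. Over all 6986 unigenes with that minimum, 6.03% were over 2-fold lower and 4.88% over 2-fold higher in rhizome_O. TR8430|c0_g1 and CYP716A52v2 stood at places 5849 and 6481 of these when sorted from the highest ratio of rhizome_O over rhizome_Y down. TR76208|c0_g1 did not reach 100 counts in any library and has no place among them, here and in the comparisons that follow.

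The rhizomes had higher levels than secRoot of both main unigenes. TR8430|c0_g1 was 3.04-fold higher in rhizome_O than in secRoot (2.84 to 3.26) and 4.27-fold higher in rhizome_Y than in secRoot (3.996 to 4.57). CYP716A52v2 was 2.66-fold higher in rhizome_O than in secRoot (2.34 to 3.02) and 4.97-fold higher in rhizome_Y than in secRoot (4.42 to 5.59). Both thus passed 2-fold in both comparisons, as did 6.12% of 8712 unigenes for rhizome_O and 6.62% of 8642 for rhizome_Y. With a minimum of 20 counts in place of 100, the share for rhizome_O was 9.34%. In the order of all ratios of rhizome_Y over secRoot, CYP716A52v2 was at place 153 and TR8430|c0_g1 at place 180, and for rhizome_O over secRoot they were at places 270 and 207. TR76208|c0_g1 was 6.35-fold higher in rhizome_Y than in secRoot, from 11 against 3 counts (1.68 to 35.4), and had too few counts for a ratio of rhizome_O over secRoot.

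Against flower the ratios of the cyclase were larger than those of the oxidase. TR8430|c0_g1 was 6.49-fold higher in rhizome_O (5.73 to 7.38), 9.12-fold higher in rhizome_Y (8.06 to 10.4) and 2.13-fold higher in secRoot (1.87 to 2.44) than in flower. CYP716A52v2 was 3.00-fold higher in rhizome_O (2.53 to 3.57) and 5.61-fold higher in rhizome_Y (4.76 to 6.64) than in flower, while secRoot over flower gave 1.13 with an interval of 0.940 to 1.36. That last value depended on the scaling: it was 1.23 under TMM without leaf (1.02 to 1.48), 1.27 under median of ratios without leaf (1.06 to 1.53) and 2.57 under TMM of 5 libraries (2.14 to 3.10), where TR8430|c0_g1 came to 4.85. Over 2-fold were 17.6% of 7410 unigenes for rhizome_O, 17.8% of 6566 for rhizome_Y and 23.5% of 9114 for secRoot, so that passing 2-fold was common in these comparisons. TR8430|c0_g1 was at place 262, 216 and 1961 in the 3 comparisons, and CYP716A52v2 at place 677, 362 and 4517. TR76208|c0_g1 gave 0.286, 1.87 and 0.295 over flower, with intervals that all included 1.

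Few leaf counts were assigned to any of the 3. Whether leaf RNA of these enzymes was assigned to other unigenes was not tested. TR8430|c0_g1 had a ratio over leaf of 1150 in rhizome_O (393 to 5579), 1616 in rhizome_Y (552 to 7839), 378 in secRoot (129 to 1835) and 177 in flower (59.96 to 864), all against 3 counts. CYP716A52v2, with 4 counts in leaf, had a ratio of 240.1 in rhizome_O (93.4 to 884), 449 in rhizome_Y (175 to 1650), 90.4 in secRoot (35.0 to 333) and 80.02 in flower (30.7 to 297). Differences over 2-fold were the rule against this library: 47.9% of the unigenes were over 2-fold higher in rhizome_O, 43.7% in rhizome_Y, 54.1% in secRoot, with 41.2% in flower than in leaf, so the passing of 2-fold by both says little about these unigenes. The size of the leaf ratios also depended on the scaling. Under TMM of 5 libraries TR8430|c0_g1 came to 169 in rhizome_O, 35.9 in rhizome_Y, 10.6 in secRoot, with 2.19 in flower, over leaf, and CYP716A52v2 to 35.7, 10.1, 2.58 and 1.004. Under it the intervals of both unigenes for flower over leaf and of CYP716A52v2 for secRoot over leaf included 1. TR76208|c0_g1 had 0 counts in leaf, and against the level of 3 counts it was at least 5.96-fold higher in rhizome_Y and at least 3.19-fold higher in flower by the point values, which rest on 11 and 5 counts and leave out their own counting error.

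**Figure D4:**
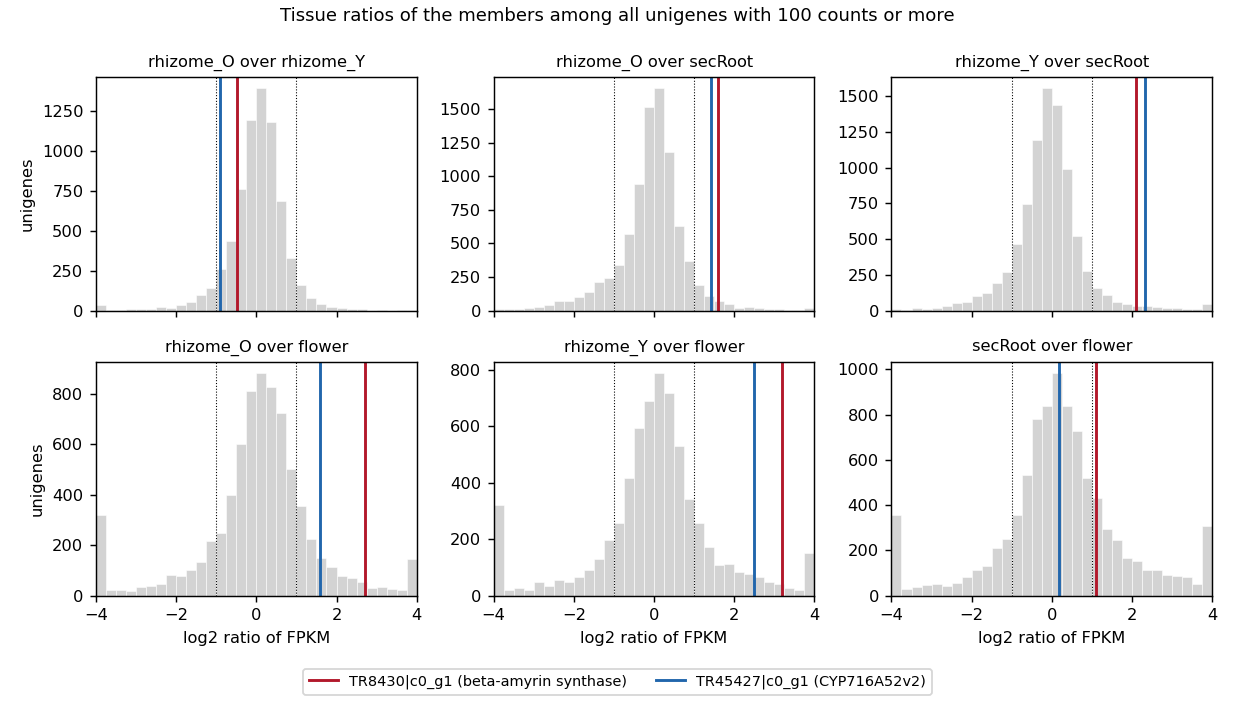
Histograms of the log2 ratio of FPKM, with 0.1 added to both, for all unigenes with at least 100 counts in either library, in the 6 comparisons without leaf; ratios beyond the axis are in the outermost bars and dotted lines mark 2-fold. Coloured lines are the ratios of TR8430|c0_g1 and TR45427|c0_g1: both lie below 0 for rhizome_O over rhizome_Y (a direction that TMM scaling of 5 libraries turns round), both lie above 2-fold for the rhizomes over secRoot and flower, and for secRoot over flower they stand at 2.13-fold and 1.13-fold (4.85-fold and 2.57-fold under TMM scaling of 5 libraries).

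The heat map of the study shows another unigene under the label beta-amyrin synthase, TR67053|c1_g2, which lies outside the 3 chosen here. Its level was 12.1 FPKM in rhizome_O, 29.4 in rhizome_Y, 13.9 in secRoot, 22.2 in flower and 0 in leaf, from 47, 107, 80, 60 and 0 counts. This profile is flatter than that of TR8430|c0_g1, and relative to TR8430|c0_g1 it reached 0.0419 in rhizome_O (0.0307 to 0.0559), 0.0729 in rhizome_Y (0.0595 to 0.0884), 0.147 in secRoot (0.115 to 0.184) and 0.502 in flower (0.373 to 0.666). None of these 4 intervals overlapped another.

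The make-up of the beta-amyrin synthase label hence shifted between tissues. TR8430|c0_g1 supplied 95.5% of the summed FPKM of the 3 cyclase unigenes in rhizome_O, 91.1% in rhizome_Y, 85.9% in secRoot, with 61.6% in flower. TR76208|c0_g1 supplied 0.512%, 2.28%, 1.45% and 7.50%, and TR67053|c1_g2 supplied 4.003%, 6.64%, 12.6% and 30.9% in the same tissues. With TR67053|c1_g2 added to the cyclase, the oxidase to cyclase ratio became 0.431 in rhizome_O, 0.546 in rhizome_Y, 0.444 in secRoot, with 0.601 in flower, so flower still had the highest of the 4 ratios but by a smaller margin. Whether the 3 unigenes are separate genes or pieces of one was not tested.

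**Figure D5:**
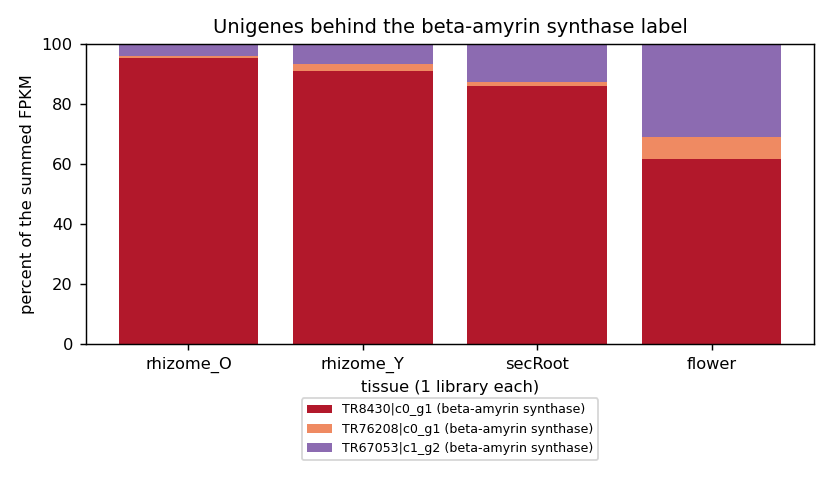
Percent of the summed FPKM of the 3 unigenes labelled beta-amyrin synthase that each supplied, stacked to 100 for each of the 4 tissues other than leaf. TR8430|c0_g1 supplies 95.5% in rhizome_O and 61.6% in flower, where TR67053|c1_g2 supplies 30.9%.

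The competing cyclase of the dammarane branch was less abundant than beta-amyrin synthase, and by more in the rhizomes. The summed FPKM of TR8430|c0_g1 and TR76208|c0_g1 was 289 in rhizome_O, 414 in rhizome_Y, 96.1 in secRoot, with 49.7 in flower. That of the dammarendiol synthases TR71337|c0_g1 (587 bp) and TR39742|c0_g1 (1918 bp) was 79.9, 123, 56.3 and 34.5 FPKM. Whether these are separate genes or pieces of the same gene was not tested. Pieces of the same gene would be counted more than once in the sum, which would make the ratios below too low. The ratio of beta-amyrin to dammarendiol synthase was 3.62 in rhizome_O (3.19 to 4.12), 3.35 in rhizome_Y (3.00 to 3.77), 1.71 in secRoot (1.496 to 1.96) and 1.44 in flower (1.11 to 1.89).

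Relative to secRoot the branch ratio was 2.12 times as high in rhizome_O (1.76 to 2.55) and 1.96 times as high in rhizome_Y (1.64 to 2.34). Relative to flower it was 2.51 times as high in rhizome_O (1.86 to 3.36) and 2.33 times as high in rhizome_Y (1.73 to 3.10). Between rhizome_O and rhizome_Y it differed by 1.08 times (0.908 to 1.28) and between secRoot and flower by 1.19 times (0.876 to 1.59), with intervals that included 1. With TR67053|c1_g2 added, the branch ratio was 1.95 in secRoot (1.71 to 2.24) and 2.09 in flower (1.62 to 2.72), so that the order of these tissues changed, while both rhizomes were still 1.72 to 1.93 times as high as either. In leaf the ratio of 2.08 comes from 3 over 1 counts (0.167 to 109).

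The oxidases of the branches were further apart than the summed cyclases. CYP716A53v2, the unigene TR49263|c0_g1, had 5.25 FPKM in rhizome_O, 4.36 in rhizome_Y, 1.41 in secRoot, with 14.1 in flower, from 23, 16, 9 and 44 counts. CYP716A52v2 was 24.7 times as abundant in rhizome_O (16.3 to 39.2), 55.6 times in rhizome_Y (34.1 to 97.6), 34.6 times in secRoot (18.04 to 76.2) and 3.06 times in flower (2.18 to 4.36). On the FPKM scale CYP716A53v2 was highest in flower, with rhizome_O at 0.372 times flower (0.214 to 0.629), which TMM of 5 libraries turned round to 4.40.

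Squalene epoxidase supplies the substrate of both cyclases. Its summed FPKM was less variable among the 4 tissues than that of beta-amyrin synthase. The sum of its unigenes TR65926|c0_g1 and TR56921|c0_g1 was 62.9 in rhizome_O, 70.8 in rhizome_Y, 57.4 in secRoot, with 55.1 in flower. The unigenes themselves ran in opposite directions. In the same order of tissues, TR65926|c0_g1 rose through 7.68, 23.92, 25.69 and 28.43 FPKM. TR56921|c0_g1 fell through 55.19, 46.84, 31.75 and 26.69 FPKM. Under TMM of 5 libraries both were highest in rhizome_O. The ratios below use the sum. Beta-amyrin synthase was 4.60 times as abundant as squalene epoxidase in rhizome_O (4.08 to 5.20), 5.85 times in rhizome_Y (5.19 to 6.62), 1.67 times in secRoot (1.498 to 1.87) and 0.901 times in flower (0.751 to 1.08). CYP716A52v2 was 2.06 times as abundant in rhizome_O (1.80 to 2.37), 3.42 times in rhizome_Y (3.01 to 3.91), 0.849 times in secRoot (0.739 to 0.976) and 0.784 times in flower (0.637 to 0.964). Both oleanane steps thus lay above the summed squalene epoxidase in the rhizomes. In secRoot and in flower the oxidase lay below that sum, though above either of its unigenes alone.

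A wider view came from a list that does not cover the whole pathway heat map of the study. It lacks phosphomevalonate kinase and geranylgeranyl pyrophosphate synthase, which the pathway of the study names, and its counts and medians hold for this list only. The list held 18 other enzyme-labelled unigenes, from acetyl-CoA acetyltransferase to the dammarane oxidase. By FPKM, 2 of these were highest in rhizome_O, 9 in rhizome_Y (as the 3 oleanane unigenes were), 0 in secRoot, 5 in flower, 2 in leaf, and under TMM of 5 libraries 16 were highest in rhizome_O and 2 in leaf. Of all 16352 unigenes with at least 100 counts in any library, 12.9% were highest by FPKM in rhizome_O, 9.86% in rhizome_Y, 17.6% in secRoot, 17.0% in flower, 42.7% in leaf, and under that scaling 53.4% in rhizome_O and 43.5% in leaf. The 18 were not held to that minimum of 100 counts. TR71337|c0_g1 and TR57974|c2_g2, both highest by FPKM in rhizome_Y, did not reach it in any library. Neither did TR49263|c0_g1, highest by FPKM in flower. Among the 13 of the pathway list with 100 counts in rhizome_O or rhizome_Y, 3 were over 2-fold lower and 0 higher in rhizome_O. Over all unigenes tested these shares were 6.03% and 4.88%. The median log2 ratio of the list was -0.54 against 0.07 over all unigenes tested. A scaling that raises these log2 ratios by 2.72, TMM of 5 libraries, would turn the median of the list round.

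Against secRoot few of the list passed 2-fold. For rhizome_O over secRoot 0 of 12 were over 2-fold higher and 1 lower, beside 6.12% and 11.2% of all unigenes tested, and the median log2 ratio was 0.23 against 0.002 over all. For rhizome_Y over secRoot 3 of 13 were over 2-fold higher and 0 lower, beside 6.62% and 10.4%, and the median was 0.52 against -0.08. Under TMM of 5 libraries all log2 ratios move by 2.38 in the first of these comparisons and by -0.34 in the second.

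Against flower more of the list passed 2-fold, as more of all unigenes did. For rhizome_O over flower 5 of 12 were over 2-fold higher and 2 lower, beside 17.6% and 15.0%, with a median log2 ratio of 0.92 against 0.15. For rhizome_Y over flower 7 of 13 were higher and 1 lower, beside 17.8% and 16.1%, with a median of 1.137 against 0.09. For secRoot over flower 5 of 12 were higher and 2 lower, beside 23.5% and 15.5%, with a median of 0.87 against 0.16. Under TMM of 5 libraries all log2 ratios of these 3 comparisons move up, by 3.57, 0.85 and 1.19.

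Upstream enzymes illustrate the spread. Acetyl-CoA acetyltransferase TR54322|c1_g1, which starts the mevalonate route, had 194 FPKM in rhizome_O, 274 in rhizome_Y, 191 in secRoot, with 45.5 in flower. Squalene synthase TR62965|c0_g2, which joins farnesyl diphosphate units, had 84.2, 139.95, 110.1 and 63.6 FPKM. HMG-CoA reductase TR68099|c2_g1, a control point of the mevalonate route, had 14.6, 38.0, 11.9 and 113 FPKM and so was highest in flower. Of the other unigenes with this label, TR60511|c0_g1 was also highest in flower, at 103.68 FPKM against 69.45 in rhizome_Y. TR57974|c2_g2 was highest in rhizome_Y, at 13.37 FPKM against 7.88 in flower. Under TMM of 5 libraries all of these HMG-CoA reductase unigenes were highest in rhizome_O. Of the 18, the 16 that were highest outside leaf had 0 to 6 counts in leaf, as the oleanane unigenes did. The other 2, acetyl-CoA acetyltransferase TR61952|c0_g1 and hydroxymethylglutaryl-CoA synthase TR59102|c0_g1, had 46.9 and 25.6 FPKM in leaf and 0 or 1 count in every other library. For these early steps leaf RNA was therefore assigned mostly to other unigenes than RNA of the remaining tissues. For beta-amyrin synthase and CYP716A52v2 no leaf counterpart carried the label in the list used here. Unigenes outside that list were not searched, so leaf counterparts of both may have been missed.

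Finally, the tissue profiles of the cyclase and the oxidase were set beside those of other unigenes. Likeness was the Euclidean distance of log2(FPKM + 0.1), centred over rhizome_O, rhizome_Y, secRoot and flower, among unigenes with at least 100 counts over these libraries, and it is a description over 4 points that share a depth per library. CYP716A52v2 lay at a distance of 0.84 from TR8430|c0_g1, place 3 of 359 unigenes of the k-means set and place 43 of 15434 unigenes. Seen from CYP716A52v2, TR8430|c0_g1 was at place 6 of 359 and 76 of 15434. The dammarendiol synthases TR39742|c0_g1 and TR71337|c0_g1 were nearly as close to CYP716A52v2, at 0.89 and 0.90, whereas TR67053|c1_g2, of the same label as TR8430|c0_g1, lay at 2.67 from TR8430|c0_g1.

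The nearest unigenes of the k-means set to TR8430|c0_g1 were TR66511|c0_g1 at 0.60 and TR51475|c0_g1 at 0.73, followed by CYP716A52v2. TR66511|c0_g1 had 33.5 FPKM in rhizome_O, 80.9 in rhizome_Y, 15.1 in secRoot, with 5.66 in flower. Nearest to CYP716A52v2 were TR33606|c0_g4 at 0.61, TR65802|c0_g1 at 0.67 and TR62262|c0_g1 at 0.72, the last with 165 FPKM in rhizome_O, 168 in rhizome_Y, 61.0 in secRoot, with 50.2 in flower. Over all unigenes the nearest were TR55298|c0_g1 at 0.17 and TR62010|c0_g1 at 0.22 to TR8430|c0_g1, and TR64478|c0_g1 at 0.05 and TR62418|c0_g1 at 0.24 to CYP716A52v2. Apart from CYP716A52v2 and TR62262|c0_g1, the neighbours named here had only 4 to 18 counts in flower. Counting error was not carried into the distances, so these places are loose. Another measure of likeness changed these names: with Pearson correlation over the same 4 libraries, CYP716A52v2 was at place 380 of 15434 from TR8430|c0_g1.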

How the data were processed

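Poly(A) RNA of 5 tissues was sequenced from strand-specific libraries, and reads were trimmed by the authors with Trimmomatic, pooled for assembly with Trinity 2.0.6, aligned with Bowtie 2.0 and quantified with RSEM (for Trimmomatic and RSEM the sources used here name no version). Expected counts, as deposited by the authors, are the read pairs RSEM placed on each contig, and all were whole. The deposited FPKM are those counts divided by effective length and library depth. The deposited TPM come from the same run of the authors, scaled to an equal sum per library. No reference genome was used. Of 206610 contigs, those with the same Trinity gene identifier were summed to a unigene.

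Members and lists were chosen with earlier results of these data known. Named were the 3 members and a list of enzyme-labelled pathway unigenes that does not cover the whole heat map of the study. For TR8430|c0_g1 and TR45427|c0_g1 the 3 nearest unigenes of the k-means set and the 2 nearest of all were named too. Enzyme labels and the k-means set were taken from the study's figures and supplements as names only. The carboxylase contigs shown for leaf and the comparison of ratios between tissues with TR67053|c1_g2 added were chosen after seeing the data. So were the intervals under other scalings and the highest tissue under TMM of 5 libraries.

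Intervals are exact 95% Poisson or conditional intervals of the counts, checked on simulated counts of single unigenes. For sums of unigenes the counts were pooled and the interval scaled to the summed FPKM. Such intervals are approximate, and too narrow where a short contig with few counts carries much of the sum. All intervals cover counting error only, since PCR reads without molecular identifiers are not independent molecules and variation between plants is not covered. Ratios of members have nothing added, and medians over lists used FPKM plus 0.1. A count of 0 was taken to allow 3 counts. The largest library held 2.05 times the counts of the smallest. Columns of samples not used numbered 0. Alternatives were TPM, counts, the most abundant contig, other cyclase sets, TMM and median-of-ratios scaling, and other filters and likeness measures. Software was edgeR 4.0.16 (normalization factors only) under R 4.3.3, and scipy 1.17.1, pandas 2.3.3, numpy 2.4.6 and matplotlib 3.10.9 under Python 3.11.15. Sequences were not analysed here.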

Additional observations from a re-analysis of the deposited data

How the results depend on the processing

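Of 251 values under other settings, 109 belonged to settings counted as fixed or nearly so by construction, and all 109 stayed within the limits. Members are single contigs. TPM changes all unigenes of a library by 1 factor, which leaves its ranks and inner ratios as they were apart from rounding. That factor differs between libraries, so tissue ratios did move under TPM. TR8430|c0_g1 in rhizome_O over leaf went from 1150 to 1410. Of the 116 others with a counting interval, 69 stayed within it, 44 left it and 3 turned round. Of 26 with no such interval, 17 stayed within 1.5 times and 9 did not. The 3 that turned round were the ratios of rhizome_O over rhizome_Y under TMM of 5 libraries. They came to 4.69 for TR8430|c0_g1, 3.53 for TR45427|c0_g1 and 1.01 for TR76208|c0_g1. The last turned round by its point value only, since its interval under that setting, 0.108 to 4.61, included 1. That setting took leaf as its reference, although leaf shared only 10740 to 15970 unigenes above 0 with the others. Under it TR8430|c0_g1 and TR45427|c0_g1 came to 15.8 and 13.8 for rhizome_O over secRoot, 3.38 and 3.92 for rhizome_Y over secRoot, 76.9 and 35.5 for rhizome_O over flower, 16.4 and 10.1 for rhizome_Y over flower, and 4.85 and 2.57 for secRoot over flower. Over leaf they came to 169 and 35.7 in rhizome_O, 35.9 and 10.1 in rhizome_Y, 10.6 and 2.58 in secRoot, and 2.19 and 1.004 in flower. Without leaf, TMM gave TR8430|c0_g1 0.649 for rhizome_O over rhizome_Y and 2.79 for rhizome_O over secRoot, and median-of-ratios scaling gave 0.664 and 2.76. The same settings put TR45427|c0_g1 in rhizome_O at 0.488 and 0.4997 times rhizome_Y, over 2-fold lower, and its secRoot over flower ratio at 1.23 and 1.27, with intervals above 1.

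Adding TR67053|c1_g2 to the cyclase gave oxidase to cyclase ratios of 0.444 in secRoot and 0.601 in flower and a branch ratio of 2.09 in flower. With it the oxidase to cyclase ratio of rhizome_Y no longer differed from that of flower by more than counting error (0.909 times, 0.744 to 1.11). TR8430|c0_g1 alone as cyclase kept the oxidase to cyclase ratio within counting error. With only the most abundant contig of each unigene, which lowers unigenes of several contigs but not the single-contig members, TR8430|c0_g1 ranked 458, 299, 1772 and 3375 in rhizome_O, rhizome_Y, secRoot and flower, and TR45427|c0_g1 ranked 1188, 643, 3232 and 3473. By expected counts TR8430|c0_g1 ranked 98, 61, 649 and 1526 in these tissues, and TR45427|c0_g1 ranked 747, 342, 2521 and 2758.

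Likeness depended on its measure. By Pearson correlation TR45427|c0_g1 was at place 380 of all unigenes and 12 of the k-means set from TR8430|c0_g1, and TR8430|c0_g1 at 258 and 12 from TR45427|c0_g1; with leaf included the places were 173 and 9, and 672 and 31. With a minimum of 20 counts, 9.34% of unigenes were over 2-fold higher in rhizome_O than in secRoot, against 6.12% with 100. The cause of these shifts was not tested.

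No paired analysis was possible because each tissue has 1 library and the labels carry no replicate numbers. Leaving out a replicate was not run for the same reason. Depth limits TR76208|c0_g1 in all libraries, with 0 to 11 counts, and the 3 oleanane unigenes in leaf, with 0 to 4 counts.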
